A study of Mus musculus with 8 samples.

Results

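The adipokine genes examined here encode 9 hormones and secreted proteins of white adipocytes: Lep, Adipoq, Retn, Rbp4, Nampt, Rarres2, Apln, Agt and Nrg4. They were taken by name, after the Ensembl identifiers of the deposited table had been matched to mouse symbols, and all 9 were found among the 34866 genes of the table. RNA came from the fat pad beside the epididymis of male mice, and 4 libraries belonged to each genotype. Control libraries carried the genotype Aromatase flox/flox, in which the aromatase gene Cyp19a1 is flanked by loxP sites, and knockout libraries carried aP2-Cre as well as the same floxed alleles. The aP2 promoter is that of Fabp4, a fatty acid binding protein gene of adipocytes that macrophages and some endothelial cells also use, and a group with the transgene alone was not analysed here. The age of the mice is not given in the sources used here, and nothing in them says whether the libraries of a genotype came from separate animals, so p-values measure the spread between these libraries.

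White adipocytes act on other tissues through secreted proteins. Leptin, from Lep, signals the size of the fat store to the brain, and adiponectin, from Adipoq, raises insulin sensitivity in liver and muscle. Resistin, from Retn, opposes insulin action in mice, where adipocytes are its main source. Aromatase converts androgens into oestrogens, and the stated purpose of the series was to find genes in fat that act downstream of it on phosphorus metabolism.

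The bases before the transcription start are shown for Retn and Nampt, the members with the smallest p, and for Adipoq and Lep, the best known hormones of the set. RefSeq entries on GRCm38.p6 matched 8 of the 9 members, all but Rarres2. Each run holds the 250 bases before the RefSeq start, which need not be the GENCODE gene start given further on, 5′ to 3′ on the gene's strand, which is the plus strand for all 4. Capitals mark matches on either strand to the TATA box, searched as TATAAA, to the CAAT box, searched as CCAAT, to the GC box of Sp1 family factors, searched as GGGCGG, to an E-box, searched as CACGTG, or to a nuclear receptor half-site, searched as AGGTCA. No marked matches overlap in these 4 windows.
Retn, chr8:3655520-3655769: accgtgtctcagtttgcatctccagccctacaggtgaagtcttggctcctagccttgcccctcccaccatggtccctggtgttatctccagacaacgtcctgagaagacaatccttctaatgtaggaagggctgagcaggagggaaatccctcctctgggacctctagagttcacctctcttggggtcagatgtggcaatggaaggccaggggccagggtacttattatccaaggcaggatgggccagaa
Nampt, chr12:32820085-32820334: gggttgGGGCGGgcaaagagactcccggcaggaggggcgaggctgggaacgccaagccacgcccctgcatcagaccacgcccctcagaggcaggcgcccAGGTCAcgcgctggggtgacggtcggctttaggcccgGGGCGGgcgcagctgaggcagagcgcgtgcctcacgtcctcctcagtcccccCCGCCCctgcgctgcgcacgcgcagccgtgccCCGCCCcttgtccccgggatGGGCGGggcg
Adipoq, chr16:23146286-23146535: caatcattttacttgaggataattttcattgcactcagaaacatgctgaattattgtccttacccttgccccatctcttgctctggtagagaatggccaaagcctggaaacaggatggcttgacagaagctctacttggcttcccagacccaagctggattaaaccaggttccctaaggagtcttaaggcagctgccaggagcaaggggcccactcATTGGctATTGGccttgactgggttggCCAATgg
Lep, chr6:29059971-29060220: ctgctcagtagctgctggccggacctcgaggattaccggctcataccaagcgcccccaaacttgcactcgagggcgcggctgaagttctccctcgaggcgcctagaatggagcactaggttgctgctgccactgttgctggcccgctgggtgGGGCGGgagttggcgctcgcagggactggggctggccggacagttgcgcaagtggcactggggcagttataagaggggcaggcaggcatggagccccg

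The Retn window held no match to any of the 5 motifs, and its GC content was 54.8%. The Nampt window had a GC content of 75.6%, with 5 matches to GGGCGG and 1 to AGGTCA, 151 bases before the start. In the Adipoq window (GC content 48.8%) there were 3 matches to CCAAT, 34, 27 and 7 bases before the start. A single GGGCGG lay 98 bases before the Lep start, in a window with a GC content of 65.6%. Of 32817 mouse windows of the same length, 32.7% held GGGCGG, 33.8% CCAAT, 12.4% TATAAA, 14% AGGTCA and 6.02% CACGTG. A match describes the letters of the window and was not tied to any measurement of binding.

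Libraries held 1538427 to 3053565 estimated counts, and control replicate 4 was the smallest. Cyp19a1 had 2, 1, 5.02 and 1 estimated counts in the control libraries and 0, 4, 2.08 and 1.59 in the knockout libraries, so the deletion could not be checked at this depth. Adipocyte markers were abundant: Fabp4 was at 18480 ± 3100 CPM in control and 18058 ± 3247 CPM in knockout libraries (SD, n = 4), where CPM is the usual sequencing unit, a count scaled to a common library total. The brown fat marker Ucp1 was at 0.916 CPM or less in every library, while Cidea and Zic1, also listed for brown fat, were at 1.61 to 7.05 CPM and 1.83 to 6.28 CPM. Of 8 epididymis markers 5 had no count in any library, and Adam28 was at 5.77 to 12.6 CPM. Macrophage markers had a higher summed level in the knockout libraries, at 1403 to 1802 CPM against 976 to 1113 CPM in control. Lyz2 was the largest part of that sum, at a mean of 379 CPM in control and 682 CPM in knockout libraries. Of 13 tested markers 12 were higher. In edgeR 2 of them, Cd68 and Lyz2, passed an adjusted p of 0.05, as did 0.168% of all tested genes. The log2 fold change was only 0.15 in C1qa and 0.11 in C1qc, and Cd163 was lower (-0.19). The part of the macrophage markers in the results below was not tested. Genes of the mitochondrial genome took 10.7% to 12.4% of the counts in control and 8.70% to 10.1% in knockout libraries, and the part of this difference was not tested either.

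None of the 9 adipokine genes passed an adjusted p of 0.05 between the genotypes in edgeR's quasi-likelihood test, in which 0.168% of the 12480 genes tested did so. At an unadjusted p under 0.05 there were 2, Retn and Nampt, both lower in the knockout libraries; 6.39% of all tested genes reached that level and 2.87% did so in the lower direction. The same 2 genes were those whose control and knockout libraries did not overlap, which held for 4.21% of all tested genes and, in the lower direction, for 1.74%. Over the 9 members, 3 were higher and 6 lower, with a median log2 fold change of -0.10, beside -0.00149 over all genes tested.

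**Figure D1:**
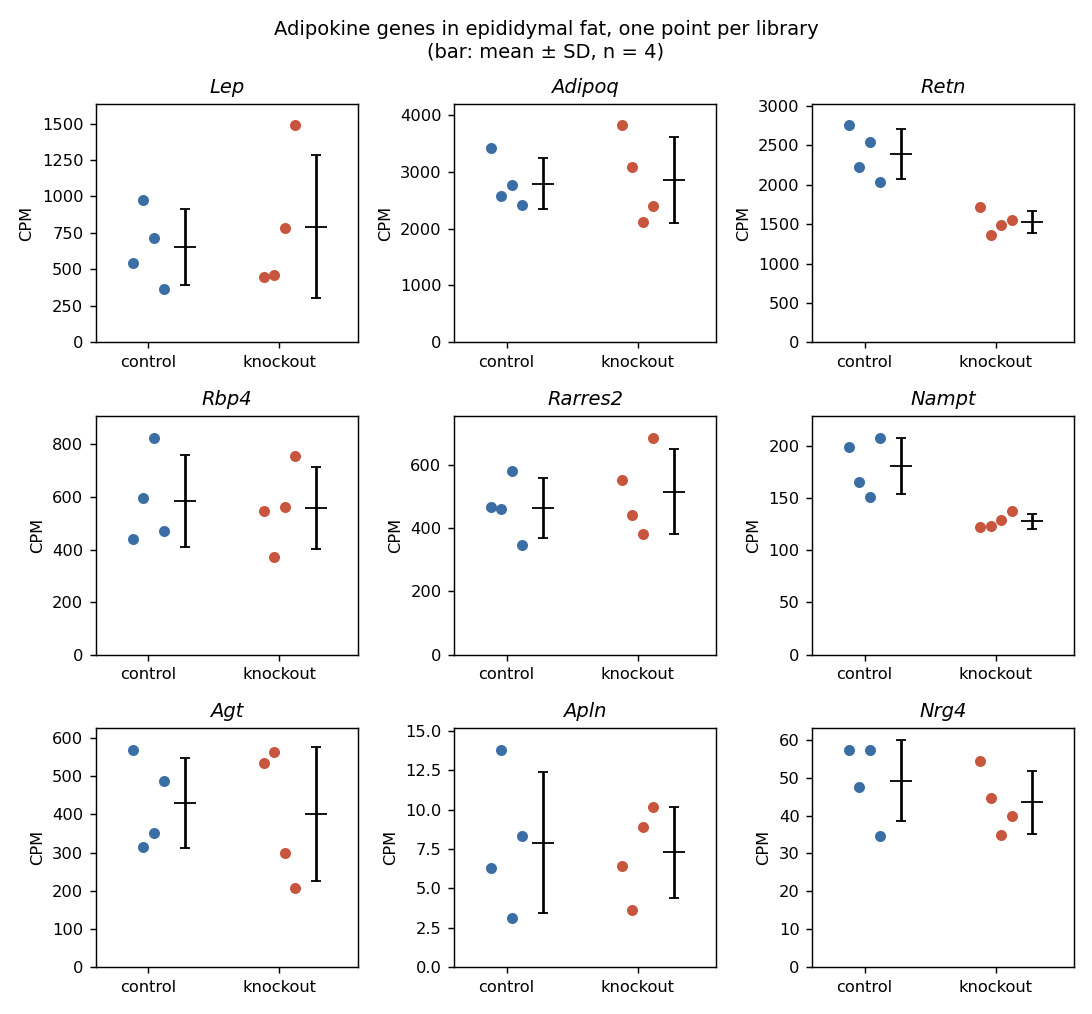
Level of each adipokine gene in CPM (linear axes from 0) in the 4 control and 4 knockout libraries, one point per library, with the mean and SD beside the points. Retn and Nampt are the panels in which no knockout point reaches the lowest control point; the highest Lep point, at 1488 CPM, is knockout replicate 4.

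Retn (ENSMUSG00000012705, chromosome 8, 3655770 to 3660110, plus strand) was at 2753, 2231, 2547 and 2037 CPM in control replicates 1 to 4. In knockout replicates 1 to 4 it was at 1714, 1367, 1486 and 1547 CPM. Every knockout library lay below the lowest control library, and the spread within the knockout libraries was the smaller. The means were 2392 ± 320 and 1528 ± 144 CPM (SD, n = 4), which in the edgeR fit was a difference of -0.65 on the log2 scale (standard error 0.127). That is 0.639 times the control level, with a 95% interval of 0.529 to 0.771 for this gene alone. The edgeR adjusted p over all genes was 0.0731, so the difference did not pass the threshold; the unadjusted p was 0.000146, the 25th smallest of the 12480. The call turned on the method: the adjusted p was 0.000220 in DESeq2, 0.0442 in limma-voom with quality weights, 0.00157 without the low-count filter, 0.0437 with libraries downsampled to the smallest and, without control replicate 4, 0.0114. With the replicate number as a block it was 0.198, and over all alternatives the range was 0.000220 to 0.368. The log2 fold change of Retn stayed between -0.72 and -0.57 in all 16 alternatives.

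Nampt (ENSMUSG00000020572, chromosome 12, 32819545 to 32853349, plus strand) encodes the enzyme that recycles nicotinamide into NAD, of which adipocytes also release a form known as visfatin. It was at 199, 165, 151 and 208 CPM in the control libraries and at 122, 123, 128 and 138 CPM in the knockout libraries, each in the order of the replicate numbers, as for the genes below. The knockout libraries lay close together and all below the control libraries, which were more scattered. With means of 181 ± 27.2 and 128 ± 7.25 CPM (SD, n = 4), the log2 fold change was -0.50 (standard error 0.123). This gave 0.709 times the control level (95% interval 0.590 to 0.850 for this gene alone), an unadjusted p of 0.00115 and an edgeR adjusted p of 0.26. Nampt passed the threshold in none of the 16 alternatives, where its adjusted p ran from 0.0730 to 0.654, and it was lower in the knockout libraries in each of them. Many cell types make Nampt RNA, and in bulk tissue fewer cells of a type cannot be told apart from less RNA per cell, for this gene or any other member.

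Adipoq (ENSMUSG00000022878, chromosome 16, 23146536 to 23158028, plus strand) was at 3419, 2573, 2764 and 2410 CPM in control replicates 1 to 4. In the knockout libraries it was at 3814, 3075, 2110 and 2404 CPM. Knockout replicate 1 lay above the highest control library, replicates 3 and 4 lay below the lowest and replicate 2 lay between, so the knockout libraries spanned the whole control range. The fold was 1.02, with a 95% interval of 0.783 to 1.33 (edgeR adjusted p = 0.992).

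Lep (ENSMUSG00000059201, chromosome 6, 29060220 to 29073877, plus strand) was the member with the widest interval. It was at 542, 979, 716 and 369 CPM in the control and at 447, 460, 782 and 1488 CPM in the knockout libraries. Knockout replicate 4 alone lay above all control libraries, and the other 3 knockout libraries lay inside the control range. The fold of 1.22 had a 95% interval of 0.547 to 2.71 (log2 fold change 0.29, edgeR adjusted p = 0.961). Without knockout replicate 4 the log2 fold change turned to -0.21, and it was -0.04 in limma-voom, which gave the libraries unequal weights. At this spread even a doubling of Lep lay inside the interval.

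The ratio of leptin to adiponectin RNA, formed within each library, does not depend on library scaling. Lep was at 15.9%, 38.1%, 25.9% and 15.3% of the Adipoq level in the control libraries and at 11.7%, 15%, 37.1% and 61.9% in the knockout libraries. The knockout libraries held both the lowest and the highest ratio. The mean log2 ratio was -2.17 ± 0.625 in control and -1.99 ± 1.12 in knockout libraries (SD, n = 4), a difference of 0.19 (two-sided exact permutation p = 0.83, where the smallest possible p is 0.0286). Without knockout replicate 4 the difference was -0.24.

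**Figure D2:**
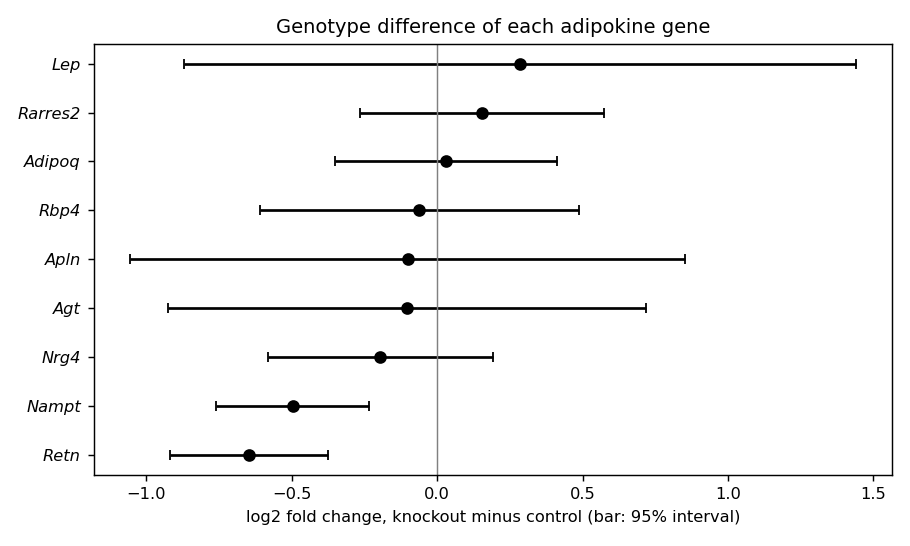
Log2 fold change of each adipokine gene, knockout minus control, with its 95% interval from the fit over all genes, not adjusted for the number of genes. The intervals of Retn and Nampt lie below 0 and the other 7 cross it; those of Lep and Apln are the widest.

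Rbp4 and Rarres2 encode a carrier of retinol in blood and chemerin, a chemoattractant for leukocytes. Rbp4 (ENSMUSG00000024990, chromosome 19, 38116629 to 38125281, minus strand) was at 441, 597, 826 and 469 CPM in the control and at 548, 371, 561 and 754 CPM in the knockout libraries. Rarres2 (ENSMUSG00000009281, chromosome 6, 48569696 to 48572789, minus strand) was at 468, 460, 581 and 346 CPM in control and at 554, 442, 382 and 687 CPM in knockout replicates, in the same order. Both genes overlapped between the genotypes. Their folds were 0.958 (95% interval 0.655 to 1.40, edgeR adjusted p = 0.985) for Rbp4 and 1.11 (0.832 to 1.49, edgeR adjusted p = 0.945) for Rarres2. The annotated 3′ end of Rarres2 overlaps Lrrc61 on the opposite strand, and since the use of strand in counting is not given in the sources used here, reads of the pair may not have been told apart.

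Agt, Apln and Nrg4 give rise to angiotensinogen, from which renin releases the angiotensin peptides, to apelin, a vascular and metabolic peptide, and to neuregulin 4, a growth factor of the EGF family. Agt (ENSMUSG00000031980, chromosome 8, 124556534 to 124569706, minus strand) was at 569, 313, 352 and 487 CPM in the control and at 535, 564, 299 and 207 CPM in the knockout libraries. Its fold was 0.931 (95% interval 0.527 to 1.64, edgeR adjusted p = 0.984), and knockout replicates 3 and 4 lay below all control libraries while the other 2 lay near the top of the control range.

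Apln (ENSMUSG00000037010, chromosome X, 48025146 to 48034853, minus strand) had 7 to 33 counts per library. It was at 6.29, 13.8, 3.14 and 8.33 CPM in the control and at 6.41, 3.63, 8.92 and 10.2 CPM in the knockout libraries, a fold of 0.932 (95% interval 0.481 to 1.81, edgeR adjusted p = 0.986). The control libraries differed by 4.40 times from lowest to highest and enclosed all the knockout libraries. Nrg4 (ENSMUSG00000032311, chromosome 9, 55220222 to 55326844, minus strand), with 54 to 164 estimated counts, was at 57.3, 47.7, 57.4 and 34.6 CPM in control and at 54.5, 44.8, 34.9 and 40.0 CPM in knockout replicates 1 to 4. Its fold was 0.873 (95% interval 0.668 to 1.14, edgeR adjusted p = 0.931). Nrg4 overlaps Fbxo22 and a processed pseudogene, Gm15625, on the opposite strand, with the same limit as for Rarres2. The other members shared no annotated position with a gene of the table. Nampt does overlap Gdap10, a long non-coding RNA gene on the same strand (32821872 to 32826904) that the table lacks.

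Each member was also set against 13 adipocyte marker genes that are not members, by subtracting their mean log2 CPM from the member's in each library. The marker mean was 10.09 ± 0.194 log2 CPM in control and 9.95 ± 0.178 in knockout libraries (SD, n = 4), and 12 of the 13 markers were lower in the knockout libraries, none past an adjusted p of 0.05. At an unadjusted p under 0.05 in edgeR there were 2 of 13, both lower, where all tested genes had 2.87% in that direction. They were Acsl1 and Gpd1, with log2 fold changes of -0.41 and -0.51. Relative to the mean of the 13 markers Retn was at 1.12 ± 0.0817 in control and 0.62 ± 0.135 log2 units in knockout libraries (SD, n = 4), a difference of -0.51. The genotypes again did not overlap, at 1.06 to 1.22 against 0.52 to 0.81; a gap in that direction was seen in 0.433% of all tested genes. Nampt differed by -0.35 on this scale and its libraries overlapped, at -3.02 to -2.12 in control and -3.18 to -2.72 in knockout libraries. Rarres2 differed by 0.28 and Adipoq by 0.14, with overlap in both. Relative Nrg4 differed by -0.03, against a log2 fold change of -0.20 on the CPM scale.

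**Figure D3:**
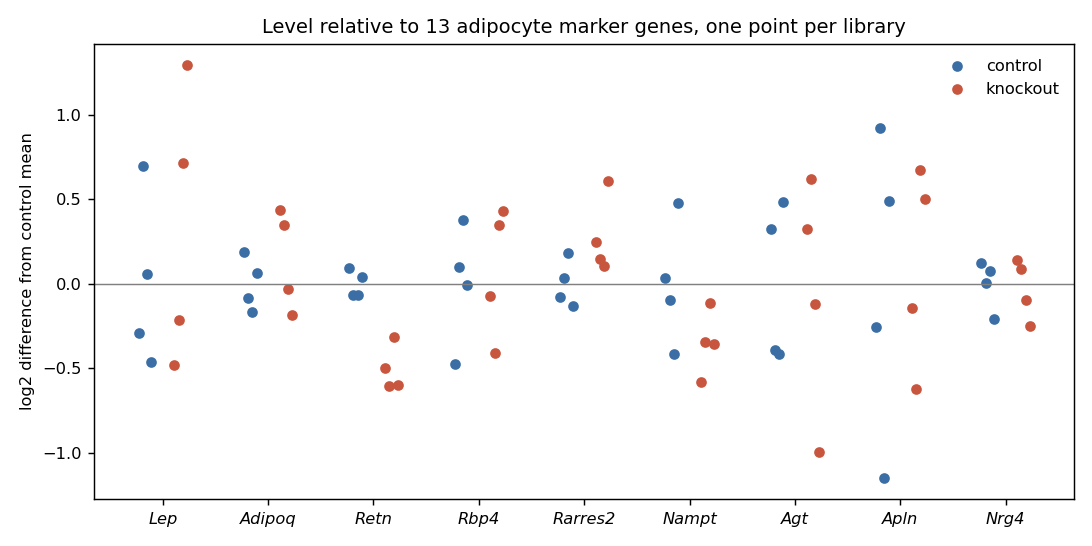
Log2 level of each adipokine gene relative to the mean of 13 adipocyte marker genes, drawn as the difference from the control mean of that gene, one point per library. The 4 knockout points of Retn lie below its 4 control points; in the other 8 genes the genotypes overlap.

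Relations between members across the libraries ranged from strong to near 0, the latter in Nampt and Nrg4 (r = -0.00069, Spearman's rho = -0.07, n = 8). For Nampt and Nrg4, r was -0.54 once the genotype means were subtracted. With 4 libraries in each genotype, relations in control libraries were not compared with those in knockout libraries. Over all 36 pairs of members the strongest relation of log2 CPM was that of Lep and Agt, with Pearson's r = -0.93 and Spearman's rho = -0.74 over 8 libraries. Leaving out the 2 libraries farthest from the median Lep level gave r = -0.92, and r was -0.92 after each genotype's mean had been subtracted. The 3 libraries with the most Lep, knockout replicate 4, control replicate 2 and knockout replicate 3, were also the 3 with the least Agt. Adipoq and Nrg4 had r = 0.79 (Spearman's rho = 0.71, n = 8; 0.69 without the 2 libraries farthest in Adipoq). Retn and Nampt had r = 0.75 (Spearman's rho = 0.69, n = 8; 0.56 without 2 libraries), but -0.18 once the genotype means were subtracted, so the relation was not seen within genotypes. The points share depth and tissue composition within a library, the pairs were picked after their values were seen, and these values are descriptions.

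**Figure D4:**
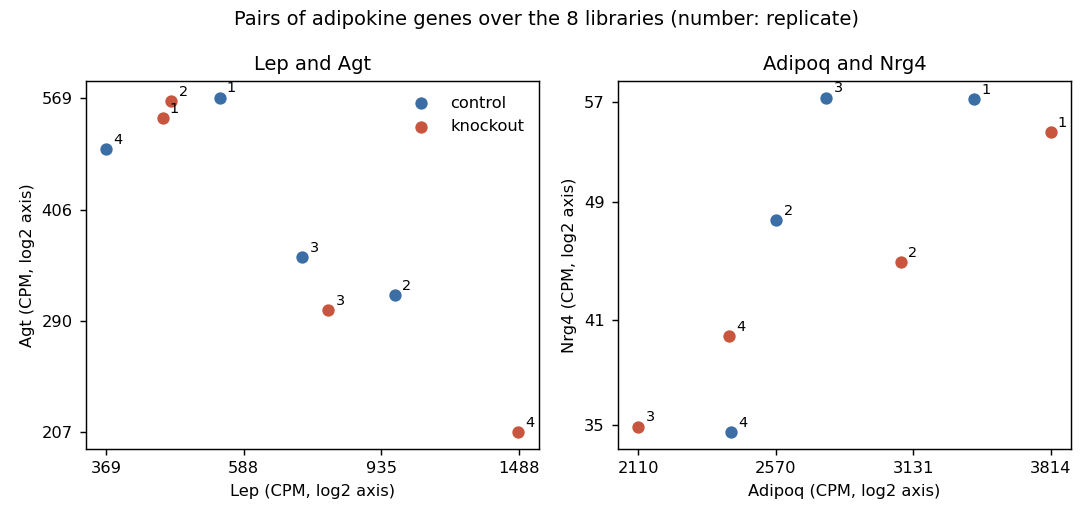
Left, Agt against Lep; right, Nrg4 against Adipoq, in CPM on log2 axes, one point per library with its replicate number. Agt is lowest, at 207 CPM, where Lep is highest, at 1488 CPM, and control and knockout points are intermixed. Nrg4 and Adipoq tend to rise together, with exceptions. The highest Nrg4 point, control replicate 3, is at 2764 CPM of Adipoq, below the highest Adipoq point at 3814 CPM.

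Among 7420 other tested genes with a mean of at least 20 CPM, those most like each member were found by Pearson's r of log2 CPM over the 8 libraries. For Retn they were Calb1 (r = 0.98), Wdsub1 (r = 0.98) and Alkbh5 (r = 0.97). This r includes the difference between the genotypes. Once the genotype means were subtracted, r with Retn was 0.94, 0.90 and 0.85, in the same order. Calb1, which encodes the calcium-binding protein calbindin, had a log2 fold change of -1.02 and passed the threshold (edgeR adjusted p = 0.038). The longest run of A in an annotated transcript was 32 bases in Calb1, 19 in Wdsub1, 9 in Alkbh5 and 5 in Retn. Such runs were not particular to the genes most like Retn. They were 24 bases in Ankib1, found for Rbp4, 18 in Sfxn1, found for Agt, and 18 in Tmcc3, found for Nrg4. In the remaining genes found for other members they were 4 to 13 bases. Long runs can prime oligo-dT. The share of all genes with such runs is not given here, and priming at them was not tested. For Lep the nearest were Anxa2 (r = 0.98), Dap (r = 0.98) and Srd5a3 (r = 0.97), and for Agt Sfxn1, Chrdl1 and Mterf3 (r = 0.98, 0.96 and 0.96). Nampt was most like Ndufa8, Cbfa2t2 and Ncbp2 (r = 0.96, 0.96 and 0.95; 0.84, 0.91 and 0.81 once the genotype means were subtracted). Adipoq was most like Txlng, Osbpl11 and Slc16a10 (r = 0.97, 0.96 and 0.95). Every member had such a gene at r = 0.95 or above after rounding, the lowest being Pfkp for Apln, so a high r over 8 libraries did not set one member apart.

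Receptors of the adipokines showed no difference past the threshold. Of 16 receptors and co-receptors listed, 9 were tested; 0 passed an adjusted p of 0.05, 0 had an unadjusted p under 0.05 in edgeR, and the median log2 fold change was 0.08. The adiponectin receptor genes Adipor1 and Adipor2 were at 151 ± 24.9 and 406 ± 118 CPM in control and at 159 ± 11.3 and 430.5 ± 119 CPM in knockout libraries (SD, n = 4). Aplnr, the apelin receptor gene, was at 18.6 ± 6.08 and 27.9 ± 9.76 CPM (SD, n = 4), 0.56 higher on the log2 scale with an edgeR adjusted p of 0.815. Agtr1a, a receptor gene for angiotensin II, was at 12.1 ± 2.52 and 17 ± 5.23 CPM (SD, n = 4), 0.49 higher on the log2 scale with an edgeR adjusted p of 0.844. Cmklr1, the chemerin receptor gene, was at 43.9 ± 9.33 and 50.3 ± 14.1 CPM (SD, n = 4). The leptin receptor gene Lepr, at 1.40 to 7.18 CPM in control and 1.55 to 4.59 CPM in knockout libraries, was too low to be tested.

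Genes that process or carry the adipokines, such as the proteases that cut angiotensin and the chaperones that assemble adiponectin, and genes of leptin and adiponectin signalling likewise gave no call. Of 17 tested processing genes, 12 were higher and 5 lower, with a median log2 fold change of 0.07. The one with an unadjusted p under 0.05 was Sel1l, of the machinery that clears misfolded proteins from the endoplasmic reticulum, at 105 ± 6.25 CPM in control and 126 ± 16.4 CPM in knockout libraries (SD, n = 4; edgeR adjusted p = 0.758). All 12 signalling genes were tested, with a median of -0.04 and none under an unadjusted p of 0.05. The smallest p there belonged to Appl1, an adaptor of the adiponectin receptors, at 50.1 ± 8.96 and 58.5 ± 3.33 CPM, and to the deacetylase gene Sirt1, at 29.2 ± 7.17 and 23.5 ± 4.23 CPM (SD, n = 4; edgeR adjusted p = 0.909 and 0.91).

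Of 40 other secreted adipose proteins listed, 29 were tested and none passed an adjusted p of 0.05. At an unadjusted p under 0.05 there were 4 of 29 higher, where all tested genes had 3.52% in that direction, and 2 of 29 lower, where all tested genes had 2.87%. The higher genes were Adm, which encodes the vasodilator adrenomedullin (13.4 ± 4.17 CPM in control and 24 ± 6.29 CPM in knockout libraries), Metrnl (11.8 ± 2.98 and 19.0 ± 5.72 CPM), the monocyte chemokine gene Ccl2 (11.1 ± 5.20 and 19.8 ± 4.10 CPM) and C1qtnf2, an adiponectin paralogue (2.79 ± 1.96 and 6.60 ± 2.01 CPM; SD, n = 4). The lower genes were Vegfa, an angiogenic factor gene (103 ± 21.6 and 76.7 ± 11.5 CPM), and Nmb, the neuromedin B gene (22.3 ± 2.92 and 15.4 ± 1.69 CPM; SD, n = 4). The summed macrophage markers given above were also higher in the knockout libraries, and their part in these values was not tested. The edgeR adjusted p-values of these 6 genes ran from 0.514 for Adm to 0.742 for C1qtnf2. Retnla, a resistin-like gene of macrophages and fat, was at 264 ± 31.4 CPM in control and 291 ± 126 CPM in knockout libraries (SD, n = 4; edgeR adjusted p = 0.965), beside the lower values of Retn.

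**Figure D5:**
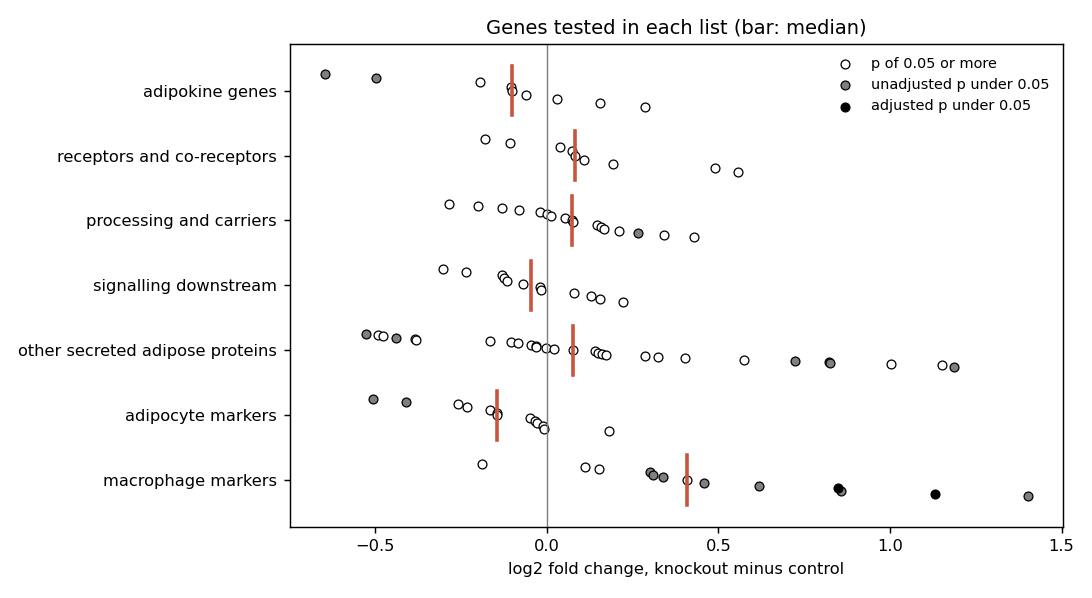
Log2 fold change, knockout minus control, of each tested gene in 7 lists, with the list median as a bar; grey points have an unadjusted p under 0.05 and black points an adjusted p under 0.05 in edgeR. The medians are -0.10 for the adipokine genes, 0.08 for their receptors and 0.41 for the macrophage markers, the only list drawn here with black points.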

How the data were processed

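RNA of epididymal fat was measured in 8 libraries by BRB-seq, a method that reads cDNA near the oligo-dT primed 3′ end, per the labels' protocols. Deposited by the authors were estimated counts for each gene, obtained with Salmon on GRCm38 per the submitters' processing notes. The Salmon version, the annotation, the use of strand and of molecular identifiers are not given in the sources used here. Of values above 0, 59.6% were whole. Identifiers were matched without version to GENCODE M21 (GRCm38), in which 34582 of 34866 genes had a symbol; Rbp4 has another version there. Estimated counts were rounded, as the design had provided for in case the deposited counts were estimated.

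Genotypes were compared over all genes with edgeR 4.0.16 in R 4.3.3 (robust quasi-likelihood F test, TMM factors, filterByExpr, Benjamini-Hochberg adjustment), which tested 12480 genes. CPM used the TMM-scaled library sizes of the tested genes, and log2 CPM a prior count of 2. The Lep to Adipoq ratio was compared by an exact permutation test over the 70 splits. Standard errors were derived as the absolute log2 fold change divided by the square root of edgeR's F statistic. Intervals at the 95% level were built from them with the t distribution. A count of 0 allows up to 3 counts, which is 0.984 to 1.92 CPM by library on the scale printed and covers counting error only. Replicates of a genotype differed by more than sampling noise (chi-square per degree of freedom 4.48 to 9.40 over 12 pairs). Words of 31 bases were shared with other genes of the table by Retn alone among the members, at most 19 of its 1548 words with any gene. The scripts were tested on simulated data first.

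The members and lists were chosen with earlier results of these data known. Named are all 9 members, genes of the receptor, processing, signalling and other secreted lists with an unadjusted p under 0.05 or, where none had one, the 2 smallest p, defining markers, and the 3 genes most like a member; Adipor1, Adipor2, Cmklr1, Lepr, Retnla, Cfd and Sfrp5 were added after their values were seen. As alternatives, RLE or upper-quartile factors replaced TMM, and the others were no filter, a total of at least 80 counts, DESeq2 1.42.0, limma-voom (limma 3.58.1) with quality weights, downsampling, the replicate number as a block and leaving out each library.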

Additional observations from a re-analysis of the deposited data

How the results depend on the processing

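Retn and Nampt were lower in the knockout libraries in all 16 alternatives, as was Nrg4, and an unadjusted p under 0.05 was reached by 2 members in each. The number of members past the threshold went from 0 to 1, always Retn, without the low-count filter, with DESeq2, with limma-voom, with downsampling and, when 1 library was left out (range 0 to 1), without control replicate 4. Genes past the threshold over the whole table numbered 58 without the filter, 55 with DESeq2 and 6 with the replicate block, beside 21, and 4 to 43 when 1 library was left out (4 without control replicate 2, 43 without control replicate 4). Log2 fold changes that reversed were those of Lep with limma-voom (-0.0351) and Rbp4 with downsampling (0.0026). When 1 library was left out, the range was -0.21 to 0.55 for Lep, -0.14 to 0.15 for Adipoq, -0.24 to 0.16 for Rbp4, -0.0169 to 0.28 for Rarres2, -0.36 to 0.33 for Apln and -0.31 to 0.11 for Agt, all of which changed sign, and -0.24 to 0.55 for the Lep to Adipoq log2 ratio. The cause was not tested.

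Same-numbered libraries correlated at 0.23, -0.14, -0.02 and -0.23 in their deviations from the genotype means. The highest correlation of each control library with a differently numbered knockout library was 0.06, 0.17, 0.10 and 0.25. The labels state no pairing, and so few values cannot show whether same-numbered libraries share a litter or batch. With the replicate number as a block the ratio difference was 0.19 (exact sign-flip p with 4 pairs cannot fall below 0.125), and no member passed.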

Other observations

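Among other secreted proteins, 2 genes varied widely within genotypes; they were chosen after their values were seen. Cfd, the gene of the complement protease adipsin, was at 17987, 10619, 9937 and 13941 CPM in the control and at 15854, 10691, 8185 and 5499 CPM in the knockout libraries (edgeR adjusted p = 0.925). The lowest Cfd level was that of knockout replicate 4, the library with the most Lep and the least Agt. Sfrp5, a secreted Wnt inhibitor gene, was at 55.9, 123, 80.7 and 5.13 CPM in control and at 93.4, 160, 118 and 227 CPM in knockout replicates 1 to 4. The lowest Sfrp5 level belonged to control replicate 4, the smallest library.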
